A study of Mus musculus with 2 samples.

Results

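Collagen chain genes encode the polypeptides that wind in sets of 3 into the collagen triple helix. They were taken as the protein-coding genes whose symbol reads Col, a number, the letter a and a number, which gave 44 of the 43346 mouse genes in the deposited tables. By the kind of structure their protein builds, 11 are fibrillar, 9 belong to basement membranes, 9 form networks, 9 are fibril-associated, 4 span the cell membrane and 2 are placed in none of these. They were read in polyadenylated RNA from mouse embryonic liver, which the labels describe as C57BL/6J at day 14, pooled over both sexes of a litter, with rRNA depleted and RNA above 200 nucleotides kept. The series has 1 group of 2 libraries, biological replicates 2 and 1, with no mutant, treatment or second stage, and all comparisons are therefore between genes or between the libraries. The labels give both libraries 1 donor entry and do not say whether their pools are of separate litters, so differences between them may be technical.

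A collagen chain carries a glycine at regular steps along its helical domain, in the repeat Gly-X-Y, since only glycine is small enough for the inside of the helix. Fibrillar collagens assemble into the tensile fibers of connective tissue, type IV collagen forms the sheet of basement membranes, and type VI collagen forms beaded microfilaments around cells. In liver, stellate cells and portal fibroblasts are the main sources of fibrillar collagen, and the walls of the sinusoids, the liver's capillaries, hold type IV and type XVIII collagen beneath the endothelium.

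The libraries held 149348514 expected counts on mouse genes in replicate 2 and 97174777 in replicate 1. Of the 6 hepatocyte markers all 6 were above 1 TPM (transcripts per 1000000) in both libraries, with a summed level of 20873 TPM in replicate 2 against 18115 TPM in replicate 1. The 6 erythroid markers, headed by the globin genes, summed to 185096 TPM in replicate 2 against 203081 TPM in replicate 1, in an organ that makes blood at this stage. All 8 endothelial markers and 8 of 10 stellate and mesenchymal markers were also above 1 TPM in both. Of the 10 skeletal muscle markers, a tissue that liver lacks, all 10 were at least 2-fold higher in replicate 1, with a summed level of 15.6 TPM in replicate 2 against 114 TPM in replicate 1.

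The glycine repeat could be read in the coding sequences. A glycine codon is GG followed by any base, so that a helical domain appears as a row of 9-base units, each opening with GGN. The exons below are shown because they hold nothing but this unit, and the stretch from a basement membrane chain because it breaks the row. Capitals mark only the glycine codons that open a unit. Other glycine codons in frame stay in lower case, as ggt in the last Col1a1 unit and ggc in the Col4a1 break. The sequences are GENCODE M21 transcripts on GRCm38, written 5′ to 3′ on the coding strand. The first is exon 8 of Col1a1 (chr11:94939904-94939957, plus strand), the second exon 8 of Col1a2 (chr6:4515481-4515534, plus strand), the third exon 6 of Col3a1 (chr1:45325360-45325413, plus strand), and the fourth 72 bases of Col4a1 on the minus strand, the last 24 of exon 18 (chr8:11237845-11237868) joined to 48 of exon 19 (chr8:11236463-11236510).
Col1a1: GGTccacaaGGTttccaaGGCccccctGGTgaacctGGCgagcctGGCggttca
Col1a2: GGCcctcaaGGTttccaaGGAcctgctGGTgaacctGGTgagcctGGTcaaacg
Col3a1: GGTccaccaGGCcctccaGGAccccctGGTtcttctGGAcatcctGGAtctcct
Col4a1: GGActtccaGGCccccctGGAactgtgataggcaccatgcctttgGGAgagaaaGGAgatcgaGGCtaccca
Each of the 3 exons of 54 bases holds 6 units. In the Col4a1 stretch, 18 bases without a glycine codon at the unit's start separate a row of 20 units from a row of 12.

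The length of the unbroken row set the fibrillar genes apart from all other classes. The longest row ran from 216 to 344 units over the 11 fibrillar genes, with a median of 338, and the lowest values were those of Col24a1 at 216 and Col27a1 at 217. No other class had a row above 113 units, the value of 4 fibril-associated genes. Basement membrane genes had a median longest row of 42 units, and Col4a1, whose longest was 40, held 18 separate rows of at least 10 units. These interruptions are a known trait of type IV collagen, whose helix bends where fibrillar helices are straight.

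**Figure D1:**
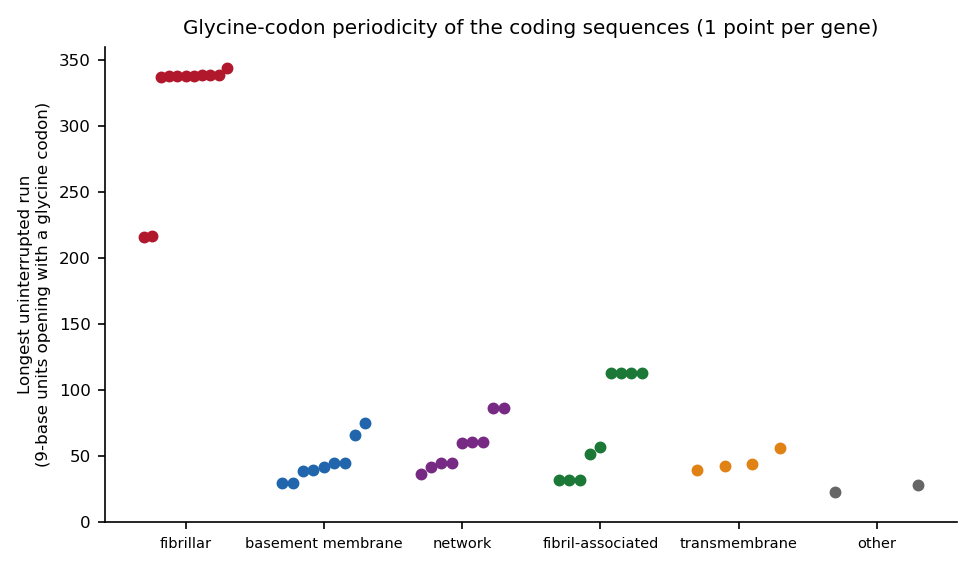
Longest uninterrupted row of 9-base units that open with a glycine codon (y axis, in units) for each of the 44 collagen genes (1 point per gene), by class (x axis). The 11 fibrillar genes lie between 216 and 344 units and every other gene at or below 113.

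Exon lengths showed the same unit. Of 1916 internal coding exons in collagen genes, 469, or 24.5%, were 54 bases long, against 697 of 156936, or 0.444%, in all other protein-coding genes. The share reached 48.6% in fibrillar genes, 26.3% in fibril-associated genes and 4.61% in basement membrane genes. Lengths divisible by 9 made up 63.9% of the collagen exons, compared with 13.7% elsewhere.

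In level, collagen genes were a small part of the profile, and a few genes held most of it. The 44 genes summed to 129 TPM in replicate 2 against 208 TPM in replicate 1, which is 0.0134% of all mouse-gene TPM in replicate 2 and 0.0214% in replicate 1. At least 1 TPM in both libraries was reached by 16 of the 44, or 36.4%, beside 50.6% of all protein-coding genes and 26.6% of all mouse genes. Above 10 TPM in both libraries stood 3 genes, Col3a1, Col18a1 and Col1a2, 4 genes reached 1 TPM in replicate 1 alone, 1 gene reached it in replicate 2 alone, and 23 reached it in neither. The 5 highest collagen genes held 65.7% of the collagen TPM in replicate 2 against 65.9% in replicate 1. In bulk tissue, fewer cells of a type and less RNA per cell cannot be told apart.

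**Figure D2:**
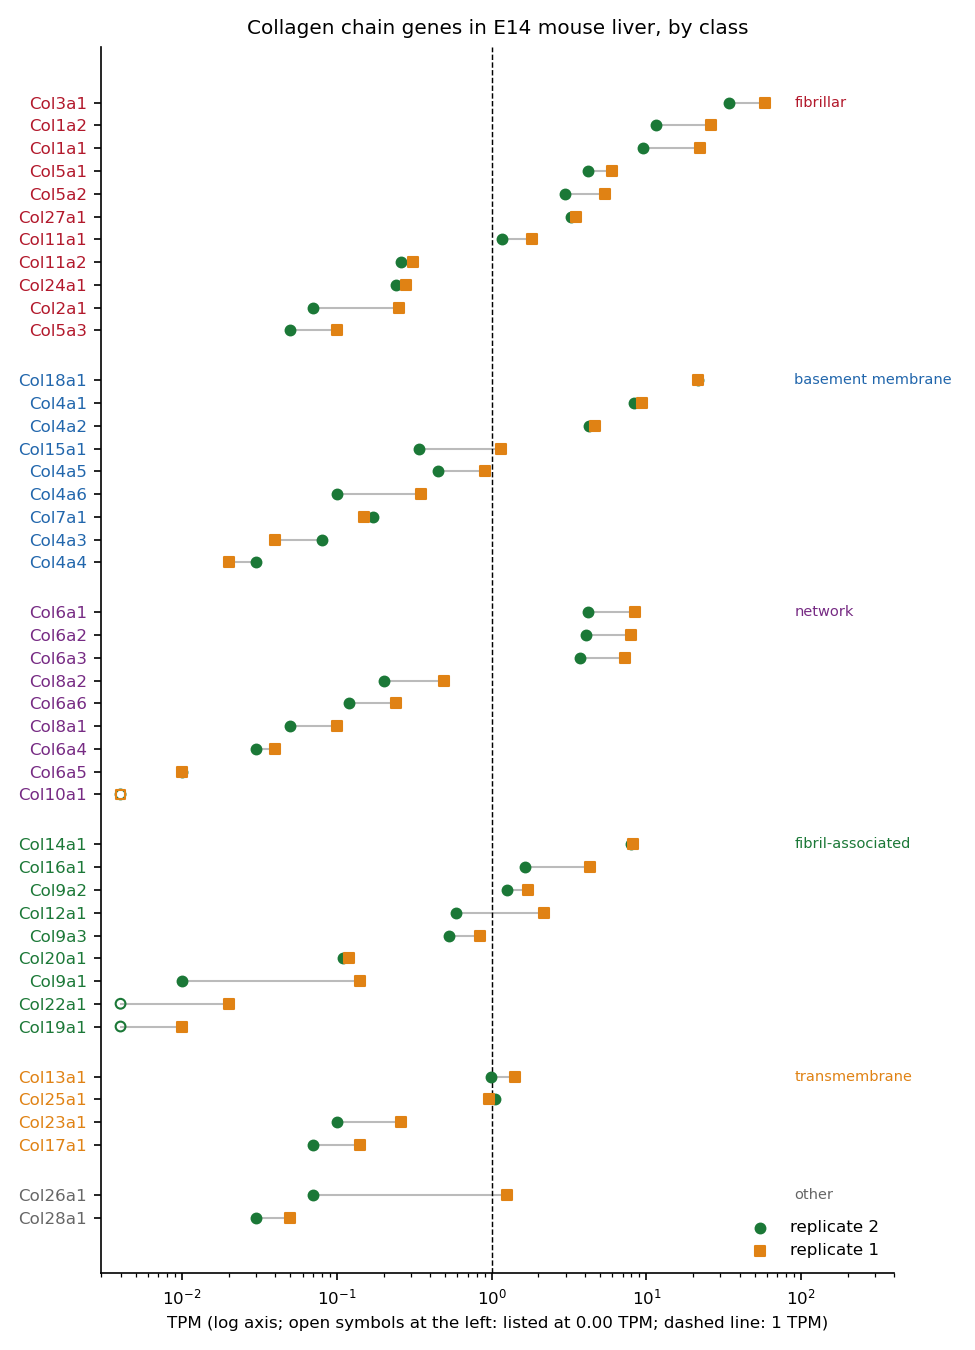
Level of each of the 44 collagen genes in TPM (x axis, log scale) in replicate 2 (circles) and replicate 1 (squares), grouped by class (label colors) and ordered by mean level within a class. Open symbols at the left edge mark genes listed at 0 TPM, and the dashed line marks 1 TPM, which 16 genes passed in both libraries.

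Differences between the libraries are given as the log2 ratio of expected counts in replicate 2 over replicate 1, each divided by its TMM effective library size, with an exact 95% interval that covers counting error only. A gene with at least 20 counts over both libraries was tested, and it was called where the ratio reached 2-fold in either direction. With 1 library on each side, the call is one of size and has no replicate check. Of the 42 collagen genes tested, 22, or 52.4%, were called in favor of replicate 1 and 0 in favor of replicate 2. Over all 17264 genes tested, 4.80% were called in the first direction and 1.47% in the second. The median log2 ratio was -1.02 over the collagen genes and -0.00 over all genes tested. The ratio was below 0 for 39 collagen genes and above 0 for 3, the interval lay wholly below 0 for 36, and it lay wholly beyond 2-fold for 14. On TPM ratios with a pseudocount of 0.1, which damp low genes and give short transcripts more weight, 9 were called in favor of replicate 1, or 13 once the median of all genes was taken off, and 0 in favor of replicate 2.

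**Figure D3:**
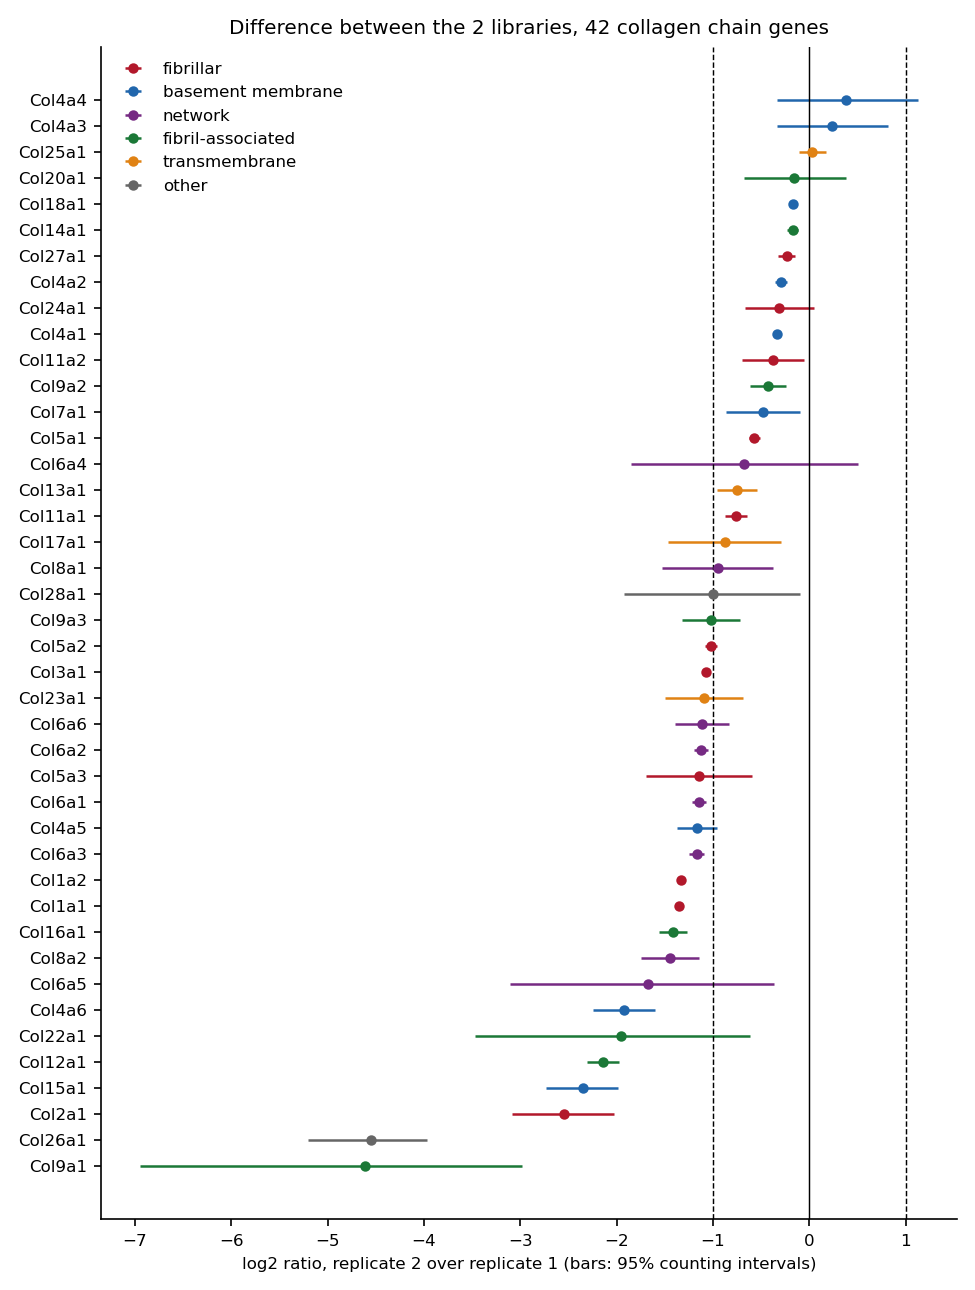
Log2 ratio of replicate 2 over replicate 1 (x axis) for the 42 collagen genes tested, ordered by ratio, with 95% counting intervals as bars and colors for the class. Dashed lines mark 2-fold. The points run from 0.38 in Col4a4 to -4.62 in Col9a1, with 22 at or beyond the left dashed line and none beyond the right one.

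Muscle markers were also higher in replicate 1. Their median log2 ratio was -5.14 over 10 genes tested, from -1.93 in Mylpf, a fast myosin light chain, to -6.85 in Myh8, the perinatal myosin heavy chain. Tendon and bone markers were called higher in replicate 1 for 3 of 7 tested, which were the tendon genes Scx, Tnmd and Mkx. Tnmd had 6 counts in replicate 2 and 85 counts in replicate 1. The bone markers tested, Alpl, Spp1, Runx2 and Sp7, were not called. Epidermal keratin and related markers were called for 4 of 6, among them Krt5 with 0.12 TPM in replicate 2 against 2.35 TPM in replicate 1, and mesothelial markers for 2 of 6. Gut and pancreas markers were called for 2 of 4 and cartilage markers for 2 of 7, beside 4.80% of all genes tested. The called cartilage genes were Matn4 and Acan. Acan had 8 counts in replicate 2 and 13 in replicate 1, and its interval covers 0. Among cartilage markers Snorc and Ucma had 0 counts in both libraries, as did Dmp1 of bone and Tff1 of gut. In replicate 2 the summed levels were 0.99 TPM for cartilage, 8.12 TPM for bone and tendon, 7.51 TPM for epidermis, 5.94 TPM for mesothelium and 9.84 TPM for gut and pancreas. In replicate 1 they were 1.23 TPM for cartilage, 9.57 TPM for bone and tendon, 10.2 TPM for epidermis, 9.89 TPM for mesothelium and 11.9 TPM for gut and pancreas. Each of these sums except that of mesothelium is led, by mean TPM, by a gene that was not called. In mesothelium the called Krt19 leads by mean TPM. In replicate 2, Upk3b, not called, leads it with 2.22 TPM against 1.28 TPM of Krt19. Comp of cartilage had 0.35 TPM in replicate 2 against 0.32 TPM in replicate 1. Perp of epidermis had 6.74 TPM in replicate 2 against 6.39 TPM in replicate 1. Alpl of bone had 4.79 TPM in replicate 2 against 4.05 TPM in replicate 1, and Fabp2 of gut 8.70 TPM against 8.73 TPM. No hepatocyte, erythroid or endothelial marker was called in either direction. The 10 stellate and mesenchymal markers summed to 80.4 TPM in replicate 2 against 79.8 TPM in replicate 1, with 1 called, the muscle and stellate filament gene Des. That sum is led by Reln, at 35.3 TPM in replicate 2 against 28.9 TPM in replicate 1, and the other 9 ratios were below 0, with a median of -0.29 over the list. Dcn stands both in that list and among the fibril-binding genes. The marker lists were chosen with earlier results of these data known. Whether other tissues have a part in the collagen ratios was not tested.

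Fibrillar genes were the most abundant class and, as a class, higher in replicate 1. They held 52.0% of the collagen TPM in replicate 2 against 59.6% in replicate 1. Of 11 fibrillar genes tested, 6 were called higher in replicate 1 and all 11 had a ratio below 0, and their summed counts gave a log2 ratio of -1.10 with an interval from -1.12 to -1.08. The 3 genes that lead the class encode types I and III collagen, which form the thick and the thin fibers of most connective tissue.

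Col3a1 (ENSMUSG00000026043.14, chr1:45311538-45349706 on GRCm38) encodes the single chain of type III collagen, the reticular fiber of liver, and was the highest collagen gene. It had 33.9 TPM in replicate 2 against 58.2 TPM in replicate 1, from 16932 counts in replicate 2 and 22288 in replicate 1, and its log2 ratio was -1.07 (interval -1.10 to -1.05). On TPM less the median of all genes its log2 ratio was -0.91, short of 2-fold. Col1a2 (ENSMUSG00000029661.12, chr6:4504814-4541544) encodes the chain present once in type I collagen and had 11.6 TPM in replicate 2 against 26.0 TPM in replicate 1, a log2 ratio of -1.33. Col1a1 (ENSMUSG00000001506.10, chr11:94936224-94953042) encodes the chain that type I collagen holds in 2 copies. It had 9.52 TPM in replicate 2 against 22.1 TPM in replicate 1, a log2 ratio of -1.36 that lies next to that of Col1a2. The intervals of Col1a1, from -1.39 to -1.32, and of Col1a2, from -1.37 to -1.29, overlapped each other, and neither overlapped that of Col3a1.

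Type V collagen, a minor component that sets the diameter of type I fibers, was split. Col5a1 had 4.22 TPM in replicate 2 against 5.96 TPM in replicate 1, and its log2 ratio of -0.57 stayed within 2-fold. Col5a2 had 2.96 TPM in replicate 2 against 5.38 TPM in replicate 1, a log2 ratio of -1.02 and a call that lies just past the threshold. The remaining chain, Col5a3, was low, with 0.05 TPM in replicate 2 against 0.10 TPM in replicate 1, from 50 counts in replicate 2 and 69 in replicate 1, and was called at -1.14. Col27a1, a fibrillar chain of cartilage and embryonic tissues with a shorter helix, had 3.26 TPM in replicate 2 against 3.53 TPM in replicate 1, and at -0.24 its ratio was the nearest to 0 in the class. Col11a1, whose product nucleates thin fibers, had 1.16 TPM in replicate 2 against 1.82 TPM in replicate 1, and its ratio was -0.76. Col2a1, the main collagen of cartilage, had 0.07 TPM in replicate 2 against 0.25 TPM in replicate 1, from 40 counts in replicate 2 and 146 in replicate 1, and at -2.55 it had the lowest ratio of the class. The other 2 fibrillar genes, Col11a2 and Col24a1, lay between 0.24 and 0.31 TPM in both libraries and were not called.

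Basement membrane genes came second in level and changed little where they were abundant. The class held 27.3% of the collagen TPM in replicate 2 against 18.4% in replicate 1. Its summed counts gave a log2 ratio of -0.28 (interval -0.30 to -0.25), and 3 of 9 genes were called higher in replicate 1, all 3 among the low ones. Col18a1 (ENSMUSG00000001435.10, chr10:77052178-77166548) encodes type XVIII collagen, the source of the fragment endostatin. It had 21.6 TPM in each library, from 16935 counts in replicate 2 and 11928 in replicate 1, and a log2 ratio of -0.17. Across all tested genes, unscaled TPM ratios lie 0.14 above the scaled count ratios in the median, a shift that Col18a1 shares. In replicate 2 it was the second collagen gene, ahead of Col1a2 and Col1a1, and in replicate 1 it stood behind both. Col4a1 (ENSMUSG00000031502.9, chr8:11198423-11312826) had 8.26 TPM in replicate 2 against 9.38 TPM in replicate 1, and its ratio was -0.34. Col4a2 (ENSMUSG00000031503.9, chr8:11312805-11449287), the partner of Col4a1 in the ubiquitous type IV trimer, had 4.24 TPM in replicate 2 against 4.68 TPM in replicate 1 and a ratio of -0.29.

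The remaining type IV chains are restricted to specialised basement membranes such as those of kidney glomerulus and smooth muscle, and all 4 were under 1 TPM in both libraries. Col4a5 had 0.45 TPM in replicate 2 against 0.90 TPM in replicate 1 and was called at -1.16. Col4a6 had 0.10 TPM in replicate 2 against 0.35 TPM in replicate 1 and was called at -1.92. Col4a3 and Col4a4 were at or below 0.08 TPM in both libraries and had ratios of 0.23 and 0.38, with intervals that cover 0. An antisense gene without a protein, at 0.37 TPM in replicate 2 against 0.39 TPM in replicate 1, overlaps an exon of Col4a3. Col15a1, a relative of Col18a1 found in vessel walls and muscle basement membranes, had 0.34 TPM in replicate 2 against 1.14 TPM in replicate 1, from 82 counts in replicate 2 and 262 in replicate 1, and was called at -2.35. Col7a1, the anchoring fibril of skin, stood at 0.17 TPM in replicate 2 against 0.15 TPM in replicate 1, while its scaled counts gave a log2 ratio of -0.48 (interval -0.86 to -0.10).

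Network genes were called more often than not, and type VI collagen made up nearly all of their level. Of 8 tested, 6 were called higher in replicate 1, and the class held 9.57% of the collagen TPM in replicate 2 against 11.7% in replicate 1. Col6a1 had 4.18 TPM in replicate 2 against 8.37 TPM in replicate 1. Col6a2 had 4.04 TPM in replicate 2 against 7.96 TPM in replicate 1. Col6a3, the large chain that completes the trimer, had 3.74 TPM in replicate 2 against 7.25 TPM in replicate 1. Their log2 ratios of -1.14, -1.13 and -1.17 had overlapping intervals, and all 3 intervals lay beyond 2-fold. Of the later type VI chains, Col6a6 was called at -1.11 from 187 counts in replicate 2 and 253 in replicate 1, and Col6a5 at -1.68 from 8 counts in replicate 2 and 16 in replicate 1. Col8a2, a chain of the corneal and vascular type VIII network, had 0.20 TPM in replicate 2 against 0.49 TPM in replicate 1 and was called at -1.44. Col10a1, the marker of hypertrophic cartilage, had 1 count in replicate 2 and 0 in replicate 1 and was not tested.

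Fibril-associated genes were mixed. They held 9.33% of the collagen TPM in replicate 2 against 8.38% in replicate 1, and 5 of 8 tested were called higher in replicate 1. Col14a1, whose product coats type I fibers and which mesenchymal cells of the liver express, led the class with 7.92 TPM in replicate 2 against 8.13 TPM in replicate 1, and its ratio of -0.17 equalled that of Col18a1. Col12a1, a relative of Col14a1 and a collagen of tendon and muscle sheaths, had 0.59 TPM in replicate 2 against 2.17 TPM in replicate 1. It was called at -2.14. Its interval, from -2.31 to -1.98, lay far from that of Col14a1, from -0.23 to -0.12. Col16a1 had 1.65 TPM in replicate 2 against 4.32 TPM in replicate 1 and was called at -1.42.

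The 3 chains of type IX collagen, which decorates cartilage fibers, were unequal. Col9a2 had 1.25 TPM in replicate 2 against 1.71 TPM in replicate 1 and a ratio of -0.43. Col9a3 had 0.53 TPM in replicate 2 against 0.84 TPM in replicate 1 and was called at -1.02, and the gene Tcfl5 on the other strand overlaps 2 of its exons. Col9a1 had 3 counts in replicate 2 and 46 counts in replicate 1, the lowest ratio of all collagen genes at -4.62, with an interval from -6.95 to -2.98. Col22a1, a collagen of the muscle and tendon junction, had 7 counts in replicate 2 and 17 counts in replicate 1 and was called at -1.96. Col19a1 had 2 counts in replicate 2 and 4 in replicate 1 and was not tested. Col20a1, with 76 counts in replicate 2 and 53 in replicate 1, had a ratio of -0.16 and was not called.

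Membrane-spanning collagens lay around 1 TPM or below. They held 1.71% of the collagen TPM in replicate 2 against 1.33% in replicate 1, and 1 of 4 was called. Col13a1, found at cell contacts and the neuromuscular junction, had 0.99 TPM in replicate 2 against 1.42 TPM in replicate 1, just either side of the detection threshold. Col25a1, a neuronal and muscle collagen needed for motor innervation, had 1.05 TPM in replicate 2 against 0.96 TPM in replicate 1, with a ratio of 0.03 and an interval from -0.11 to 0.17. Col23a1 had 0.10 TPM in replicate 2 against 0.26 TPM in replicate 1 and was called at -1.09. Col17a1, the hemidesmosome collagen of epidermis, was at 0.07 TPM in replicate 2 against 0.14 TPM in replicate 1.

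Of the 2 genes outside these classes, Col26a1 showed the widest gap among genes with over 100 counts. It had 0.07 TPM in replicate 2 against 1.26 TPM in replicate 1, from 25 counts in replicate 2 and 367 in replicate 1, and a log2 ratio of -4.55 (interval -5.20 to -3.97). Col28a1 had 20 counts in replicate 2 and 25 counts in replicate 1, and its ratio fell just short of 2-fold. Col5a2 and Col9a3, both at -1.02, were the nearest genes past it.

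**Figure D4:**
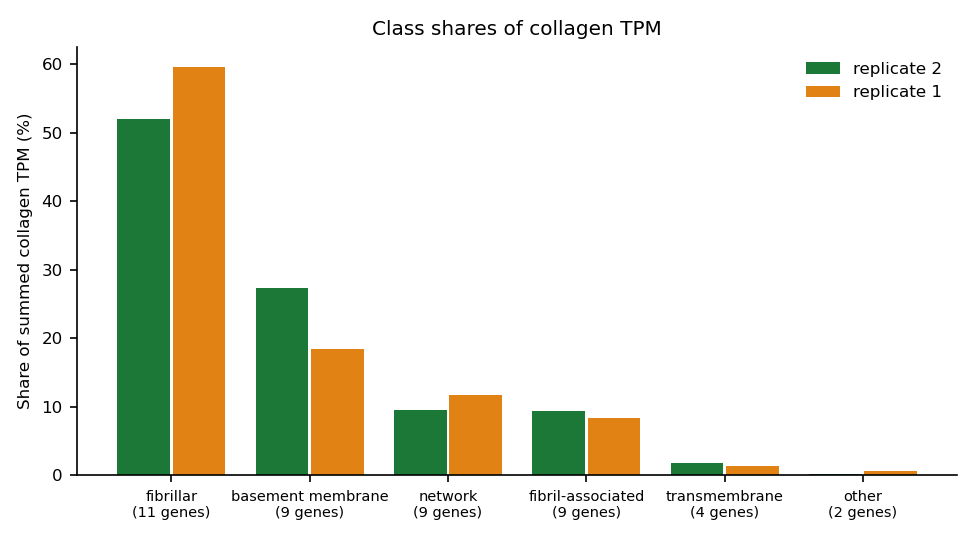
Share of the summed collagen TPM held by each class (y axis, percent; x axis, class with its number of genes) in replicate 2 (left bars) and replicate 1 (right bars). Fibrillar genes hold 52.0% in replicate 2 and 59.6% in replicate 1, and basement membrane genes hold 27.3% in replicate 2 and 18.4% in replicate 1.

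Among 12 pairs of genes for related chains, the type I, type VI and Col4a1 with Col4a2 pairs had nearly equal quotients in both libraries, and the others moved further. The TPM of Col1a1 over that of Col1a2 was 0.824 in replicate 2 and 0.850 in replicate 1, below the 2 to 1 of the chains in the protein. Col4a1 over Col4a2 was 1.95 in replicate 2 and 2.00 in replicate 1. Col6a1 over Col6a2 was 1.03 in replicate 2 and 1.05 in replicate 1, and Col6a1 over Col6a3 was 1.12 in replicate 2 and 1.15 in replicate 1. The quotient near 1 with Col6a3 depends on a 646-nucleotide model that held 61.8% of its TPM in replicate 2 and 60.4% in replicate 1. On transcripts of at least 3000 nucleotides, Col6a1 had 4.18 TPM in replicate 2 and 8.36 TPM in replicate 1. Col6a3 had 1.36 TPM in replicate 2 and 2.78 TPM in replicate 1 on that measure. Type V differed, with Col5a1 over Col5a2 at 1.43 in replicate 2 and 1.11 in replicate 1. The low pair Col4a5 and Col4a6 also differed, with a quotient of 4.50 in replicate 2 and 2.57 in replicate 1. Col11a1 over Col11a2 was 4.46 in replicate 2 and 5.87 in replicate 1, and Col9a2 over Col9a3 was 2.36 in replicate 2 and 2.04 in replicate 1. Col9a2 over Col9a1, which had 3 counts in replicate 2, was 125 in replicate 2 and 12.2 in replicate 1. The quotients of Col4a3 over Col4a4, 2.67 in replicate 2 and 2.00 in replicate 1, and of Col8a2 over Col8a1, 4.0 in replicate 2 and 4.90 in replicate 1, each have a chain at or below 0.10 TPM.

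Col4a1 and Col4a2 lie head to head on opposite strands, and their annotated start sites are 21 bases apart. Col6a1 and Col6a2 are neighbors on the same strand, and the 2 genes for type I chains are on different chromosomes. The window of Col4a2 is shown because both start sites fall in it, and 78 of its bases also lie in the Col4a1 window. It is the RefSeq promoter of Col4a2 on GRCm38.p6, chr8:11312555-11312854 on the plus strand, from 250 bases before to 50 bases after the start. Capitals mark GGGCGG (the GC box) and CCAAT (the CCAAT box), on either strand.
Col4a2: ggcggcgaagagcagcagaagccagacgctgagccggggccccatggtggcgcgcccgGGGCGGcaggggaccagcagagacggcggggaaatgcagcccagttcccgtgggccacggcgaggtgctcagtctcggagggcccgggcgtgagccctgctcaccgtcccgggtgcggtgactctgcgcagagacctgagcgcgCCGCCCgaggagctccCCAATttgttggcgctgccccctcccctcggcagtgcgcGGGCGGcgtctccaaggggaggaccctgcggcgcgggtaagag
The Col4a2 window holds 3 GGGCGG matches and 1 CCAAT match, and TATAAA, the TATA box, has 0 matches. The Col4a1 window, not printed, holds 1 GGGCGG match and 1 CCAAT match. Its GGGCGG match lies in the shared bases and is the last GGGCGG of the Col4a2 window, read on the other strand. Over 38 such windows of 35 collagen genes, GGGCGG was present in 60.5%, CCAAT in 34.2% and TATAAA in 13.2%. Over all 32851 RefSeq windows the shares were 35.7%, 37.4% and 13.6% in the same order. A match describes letters only and is no binding site. Col1a1 is named without a window.

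Transcript estimates changed how some of these levels read. Of the 16 genes above 1 TPM in both libraries, 5 in replicate 2 and 4 in replicate 1 had their highest TPM on another transcript than the one with most counts, since a short model turns few reads into a high TPM. For Col3a1, the 737-nucleotide model Col3a1-205 held 53.1% of the gene's TPM in replicate 2 against 46.6% in replicate 1, but 9.87% of its counts in replicate 2 and 7.85% in replicate 1. The full-length Col3a1-201, of 5564 nucleotides, stood at 15.9 TPM in replicate 2 against 31.0 TPM in replicate 1. By this full-length model alone, Col3a1 was below the 18.6 TPM of all Col18a1 transcripts of at least 3000 nucleotides in replicate 2, and above their 19.1 TPM in replicate 1.

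The 4 genes with this mismatch in both libraries were Col6a3, Col14a1, Col16a1 and Col27a1. A retained-intron model of 646 nucleotides held 61.8% of the Col6a3 TPM in replicate 2 against 60.4% in replicate 1, while the 9001-nucleotide coding model held 87.5% of the counts in replicate 2 and 88.1% in replicate 1. For Col14a1 a coding model of 2085 nucleotides held 47.3% of the TPM in replicate 2 against 47.7% in replicate 1. Taking only transcripts of at least 3000 nucleotides, Col6a3 stood at 1.36 TPM in replicate 2 against 2.78 TPM in replicate 1. On the same measure Col14a1 stood at 4.17 TPM in replicate 2 against 4.25 TPM in replicate 1. Col1a1, Col1a2, Col4a1 and Col4a2 were each carried mainly by 1 model: Col1a1-201 held 98.5% of the TPM of its gene in replicate 2 and 98.3% in replicate 1, and Col4a1-201 held 99.3% in replicate 2 and 100% in replicate 1. Col18a1 used several coding models, with a model of 5063 nucleotides at 61.5% of the TPM in replicate 2 against 67.8% in replicate 1, and a model of 4791 nucleotides at 22.4% in replicate 2 and 19.1% in replicate 1.

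Spliced reads in the older mm9 tables gave a second view of the same RNA. These tables number their replicates without tying them to the libraries, so that their 2 columns are given as the first and the second junction list, each value being the authors' own. Of 2134 annotated introns of collagen genes, 1692 had reads, and 43 of the 44 genes, all but Col10a1, had at least 1 read over an annotated intron. Annotated introns held 98.6% of the reads on junctions within these genes. Every one of the 50 introns of the longest Col3a1 model was read, with 478 to 5210 reads and a median of 874 over both lists.

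The contrast of Col3a1, Col1a2 and Col1a1 with the abundant basement membrane genes Col18a1 and Col4a1 was also seen over junctions. Scaled to 1000000 junction reads of each list, Col3a1 had 364 in the first list and 190 in the second, Col1a2 had 224 in the first and 106 in the second, and Col1a1 had 214 in the first and 103 in the second. Col6a1 had 53.9 in the first list and 23.9 in the second. Col18a1 had 149 in the first list and 141 in the second, Col4a1 had 86.9 in the first and 75.0 in the second, and Col14a1 had 61.4 in the first and 61.1 in the second. Not every gene of the classes followed this. The fibrillar Col27a1 had 18.0 in the first list and 16.5 in the second, and Col5a3 had 0.681 in the first and 0.622 in the second. The basement membrane gene Col15a1 had 3.44 in the first list and 0.841 in the second. These are the same libraries as in the newer tables, so the values are no further replicate. In the mm9 gene table, Col1a2 had 17.2 RPKM (reads per kilobase and 1000000 mapped reads) in one replicate and 5.10 RPKM in the other, where Col3a1 had 12.8 RPKM in the one and 4.46 RPKM in the other, and Col18a1 7.54 RPKM in the one and 5.41 RPKM in the other. In the column with the larger values Col1a2 was the highest collagen gene, and in the other Col18a1 was, while Col3a1 led in neither. Col4a1 had 5.03 RPKM in the column with the larger values and 2.60 RPKM in the other. The median fold between the same 2 columns over the 8798 genes with at least 1 RPKM in both was 1.30. That fold was 1.39 for Col18a1, 1.69 for Col4a2 and 1.93 for Col4a1. It was 2.88 for Col3a1, 3.38 for Col1a2 and 3.56 for Col1a1.

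**Figure D5:**
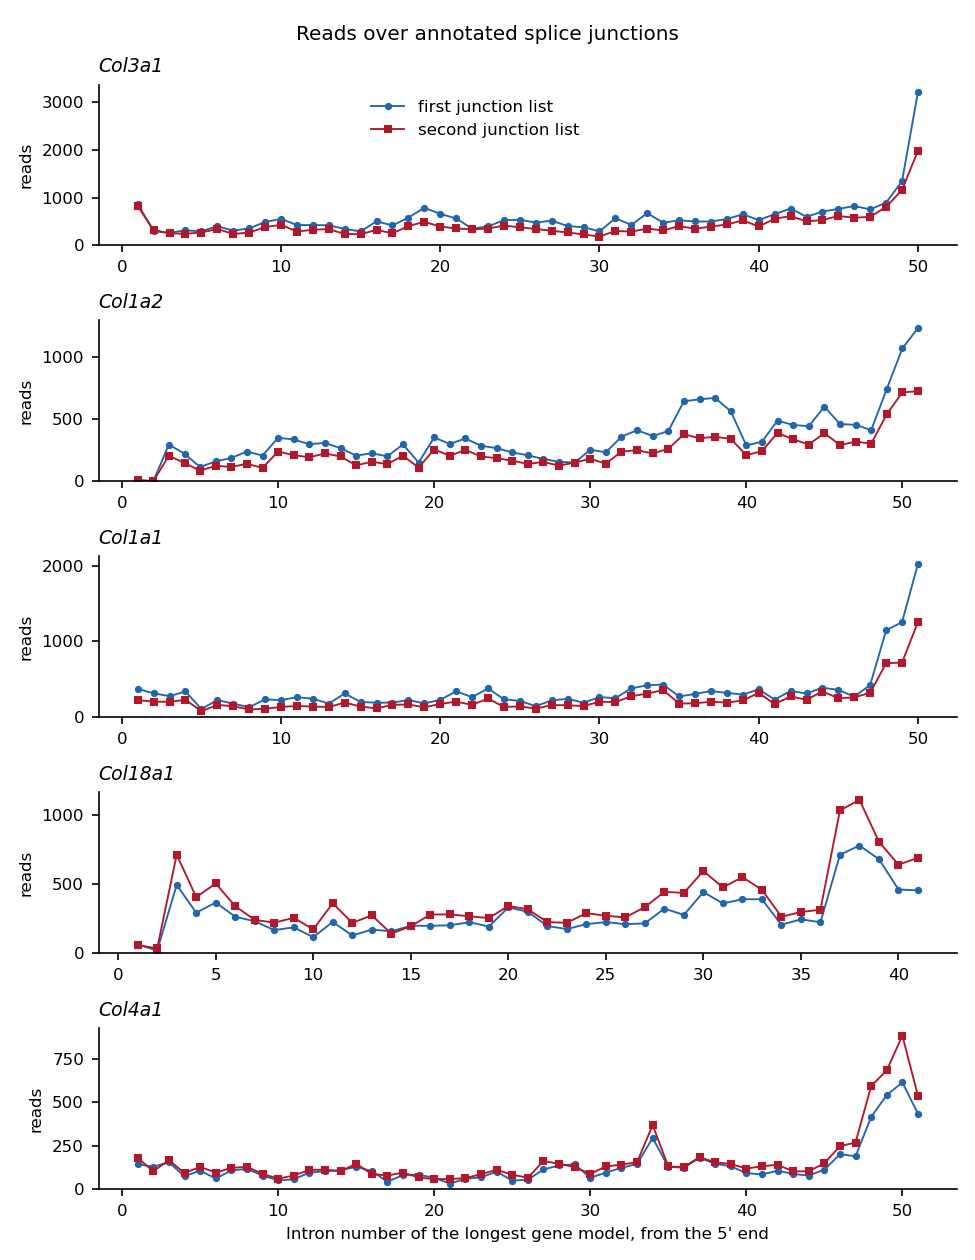
Reads over each annotated intron (y axis, reads) of the longest mm9 model of 5 collagen genes, numbered from the 5′ end (x axis), in the first junction list (circles) and the second (squares). The first list lies above the second over most introns of Col3a1, Col1a2 and Col1a1, and below it over most introns of Col18a1, in lists whose totals differ 1.41-fold with the second larger. Reads are highest toward the 3′ end in all 5 genes.

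Reads per intron were not even along the genes. The median over the last part of the introns was 1226 reads in Col3a1, against 670 over the first part, and in Col1a2 it was 879 against 369. For Col1a1 the medians were 581 over the last part and 373 over the first, for Col18a1 942 over the last and 445 over the first, and for Col4a1 276 over the last and 211 over the first. A level taken from the whole gene averages over this slope, and its share in the differences between genes was not tested. The junction with most reads outside the annotation was in Col1a2, with 274 reads in the first list and 184 in the second. The next was in Col6a2, with 134 reads in the first list and 80 in the second.

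Genes whose products modify, fold, cut and bind collagen were read from 6 lists. Of 66 such genes, 6, or 9.09%, were called in favor of replicate 1, beside 4.80% of all genes tested. For replicate 2 the count was 0, and the median log2 ratio was -0.23. Of the called genes, Postn, Itga11 and P4ha2 had intervals that reached inside 2-fold. The intervals of Loxl1, Tll1 and Dpt lay wholly beyond it. Among the 15 hydroxylases and glycosyltransferases, which modify prolines and lysines of the new chain, 13 were above 1 TPM in both libraries and 1 was called. Ppib, a cyclophilin of the prolyl 3-hydroxylase complex, had 271 TPM in replicate 2 against 249 TPM in replicate 1. P4hb, the shared subunit of prolyl 4-hydroxylase, had 226 TPM in replicate 2 against 232 TPM in replicate 1. Colgalt1, a collagen galactosyltransferase, had 28.0 TPM in replicate 2 against 26.5 TPM in replicate 1, and Colgalt2 was the lowest, at 0.19 TPM in replicate 2 against 0.18 TPM in replicate 1. The called gene was P4ha2, a catalytic subunit of prolyl 4-hydroxylase, with 1.74 TPM in replicate 2 against 2.76 TPM in replicate 1 and a log2 ratio of -1.05.

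Of 10 folding and export genes, 9 were above 1 TPM in both libraries and 0 were called. Kdelr1, a retrieval receptor for chaperones, had 53.97 TPM in replicate 2 against 48.6 TPM in replicate 1, and Mia2, an export factor of the endoplasmic reticulum, had 33.2 TPM in replicate 2 against 30.6 TPM in replicate 1. Serpinh1, the collagen chaperone HSP47, had 27.1 TPM in replicate 2 against 35.8 TPM in replicate 1, with a ratio of -0.54, and Creb3l1 was the lowest at 0.57 TPM in replicate 2 against 0.59 TPM in replicate 1. The level of Serpinh1 was closer between the libraries than that of the type I and III genes, whose products it folds.

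Of 12 genes for propeptide cleavage and cross-linking, 6 were above 1 TPM in both libraries and 2 were called. Pcolce, an enhancer of C-propeptide cleavage, had 9.87 TPM in replicate 2 against 11.3 TPM in replicate 1. Bmp1, the C-propeptide proteinase, had 7.11 TPM in replicate 2 against 7.57 TPM in replicate 1, and the lysyl oxidase Loxl2 had 3.59 TPM in replicate 2 against 4.04 TPM in replicate 1. The called genes were Loxl1, a lysyl oxidase at 0.77 TPM in replicate 2 against 1.66 TPM in replicate 1, with a ratio of -1.26, and Tll1, the lowest of the list, with 7 counts in replicate 2, 22 in replicate 1 and a ratio of -2.33.

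Of 10 matrix genes that bind fibrils, 7 were above 1 TPM in both libraries and 2 were called. Fn1, fibronectin, which hepatocytes also make, had 94.7 TPM in replicate 2 against 98.8 TPM in replicate 1, and Tnxb, a tenascin, was the lowest of the list at 0.14 TPM in replicate 2 against 0.13 TPM in replicate 1. Sparc, a collagen-binding glycoprotein, had 51.9 TPM in replicate 2 against 70.2 TPM in replicate 1, a ratio of -0.58. Dcn, decorin, had 28.5 TPM in replicate 2 against 32.7 TPM in replicate 1, a ratio of -0.35. Postn, periostin, was called at -1.02 with 13.9 TPM in replicate 2 against 27.3 TPM in replicate 1, and Dpt, dermatopontin, at -4.53 with 7 counts in replicate 2 and 101 in replicate 1.

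Of 10 receptors, 2 were above 1 TPM in both libraries: Itgb1, the shared integrin subunit, at 44.9 TPM in replicate 2 against 43.3 TPM in replicate 1, and Gp6, the collagen receptor of platelets and megakaryocytes, at 2.59 TPM in replicate 2 against 1.92 TPM in replicate 1. Ddr1, a receptor kinase, was the next, at 0.85 TPM in replicate 2 against 1.30 TPM in replicate 1. Itga11, a fibroblast integrin and the lowest of the list, was the 1 called, at 0.06 TPM in replicate 2 against 0.12 TPM in replicate 1 and a ratio of -1.01. Of 9 breakdown genes, 5 were above 1 TPM in both libraries and 0 were called. Mmp14, a membrane-bound collagenase, had 16.1 TPM in replicate 2 against 17.0 TPM in replicate 1, Mmp2 had 3.75 TPM in replicate 2 against 5.75 TPM in replicate 1, and the inhibitor Timp2 had 3.45 TPM in replicate 2 against 3.90 TPM in replicate 1. Mmp13, the rodent interstitial collagenase, was the lowest at 0.08 TPM in replicate 2 against 0.09 TPM in replicate 1.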

How the data were processed

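Expected count values (estimated fragments per gene and transcript), TPM and FPKM were deposited for mm10 with GENCODE M4, per the file headers and the notes deposited beside them, as were posterior SDs (a score); aligner and quantifier: not given in the sources used here. Both libraries are stranded, per the labels. Each transcript's percent of its gene was deposited too and was recomputed here from TPM. The authors' mm9 tables give RPKM per gene and whole junction read counts, with replicates that no label ties to the libraries.

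Genes were matched to GENCODE M21 by identifier, 42462 of 43346; spike-ins and other features held 3.40% of counts in replicate 2 and 3.29% in replicate 1. Counts were rounded and scaled by TMM in edgeR 4.0.16. Where a gene has 0 counts, up to 3 counts remain possible, or 2.01e-06% of mouse-gene counts in replicate 2 and 3.09e-06% in replicate 1. Both libraries' values are given for collagen genes of at least 1 TPM in both and for those called, and of each further list for the 3 highest, the lowest and those called. The members and lists were chosen with earlier results of these data known. A planned reading of protein sequences was made on coding sequences instead. Interval and call were tested on data simulated with counting error only, which cannot show how they behave under variation between libraries. Alternatives included DESeq2 1.42.0 size factors, TPM ratios, other filters and folds, and each replicate left out. Intervals came from scipy 1.17.1 in Python 3.11.15 with pandas 2.3.3 and numpy 2.4.6, scaling from R 4.3.3 and figures from matplotlib 3.10.9.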

Additional observations from a re-analysis of the deposited data

How the results depend on the processing

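No paired analysis was possible because the series holds 1 group. The count of 22 collagen genes higher in replicate 1 was 22 with DESeq2 size factors, with posterior mean counts and with the most counted transcript of each gene alone, 20 with total counts, 19 with at least 100 counts, 23 with at least 1 count and 28 at 1.5-fold. It was 5 at 4-fold. It was 9 and 4 on unscaled TPM ratios with pseudocounts of 0.1 and 1, and 13 once the median over all tested genes was taken off the first of these; unscaled TPM moved the median log2 ratio of all genes by 0.14. With at least 1 count, 1 gene, Col10a1, was higher in replicate 2. The median-centred TPM ratio, the most counted transcript and the levels of transcripts of at least 3000 nucleotides were chosen after seeing the data.

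Genes at 1 TPM in both libraries numbered 16, and 18 by FPKM, 17 by posterior mean TPM, 20 at 0.5 TPM, 6 at 5 TPM, 13 on transcripts of at least 3000 nucleotides, and 17 to 20 with either replicate left out. By counts, the fibril-associated share was 7.15% in place of 8.86%. With at least 10 reads in both lists, 22 genes had a supported junction in place of 43. Leaving out a replicate gave class shares from 52.0% to 59.6% for fibrillar and 18.4% to 27.3% for basement membrane genes. With 2 libraries, ratios have no error beyond counting, and genes under 20 counts were not tested.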
